A study of Homo sapiens with 6 samples.

Results

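The data described here are the H3K27me3 islands of GATA2+ endothelial cells that had been derived from human embryonic stem cells in 2 conditions, labelled Vc- and Vc+. An island is a stretch of the genome in which neighbouring windows were enriched for the mark and were merged by the peak caller. Members were chosen by label and position: every island on chromosomes 1 to 22 in the H3K27me3 list of either condition, with no use of measured values. This gave 18427 islands, 8893 from the Vc- library and 9534 from the Vc+ library (libraries are named by their labels), of 63396 islands in the 4 lists of the series. The series has 6 samples, of which 4 carry an island list (H3K27me3 and H3K4me3 in each condition) and 2 are inputs that were not used here. All cells come from the established line H1 and carry no other labelled treatment or allele. The series title names vitamin C, demethylation by KDM6 enzymes and the passage from endothelium to blood, and the comparison of the conditions bears on where H3K27me3 lies with and without Vc.

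H3K27me3, trimethylation of lysine 27 on histone H3, is written by Polycomb repressive complex 2 and is found over silent developmental genes, often at CpG-rich starts that also carry H3K4me3, a mark of promoters that are active or poised. It is removed by the KDM6 demethylases, which need iron and oxoglutarate and whose activity in cells can depend on vitamin C. In endothelium that gives rise to blood, factors such as RUNX1, GATA2 and GFI1 are needed for blood cells to form, and neural and other foreign lineage genes are held under Polycomb.

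The sequences below are the 250 bases ahead of the start of 7 genes on which the results turn, read 5′ to 3′ on the strand of the gene, from the RefSeq promoter table of assembly GRCh38.p14. Capitals mark each CpG, the 2 letters CG, which reads the same on both strands. They are shown because starts with H3K27me3 were richer in CpG than starts without it. GATA2 carried an island in both libraries. IKZF1, MYB, LOC102723996 and B3GNT7 carried one in the Vc+ library alone, and TSPAN4 and TTYH1 in the Vc- library alone.
GATA2: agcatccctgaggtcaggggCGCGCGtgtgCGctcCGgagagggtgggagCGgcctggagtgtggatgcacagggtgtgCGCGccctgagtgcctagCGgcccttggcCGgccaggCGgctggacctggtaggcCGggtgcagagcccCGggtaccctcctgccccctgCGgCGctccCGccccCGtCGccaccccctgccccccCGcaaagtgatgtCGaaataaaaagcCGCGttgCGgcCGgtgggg
IKZF1: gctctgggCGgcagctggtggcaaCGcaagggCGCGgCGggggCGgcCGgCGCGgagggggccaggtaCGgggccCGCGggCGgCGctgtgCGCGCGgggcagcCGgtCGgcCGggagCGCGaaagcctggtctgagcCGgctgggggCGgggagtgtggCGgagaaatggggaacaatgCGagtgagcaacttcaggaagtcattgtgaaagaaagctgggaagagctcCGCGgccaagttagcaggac
MYB: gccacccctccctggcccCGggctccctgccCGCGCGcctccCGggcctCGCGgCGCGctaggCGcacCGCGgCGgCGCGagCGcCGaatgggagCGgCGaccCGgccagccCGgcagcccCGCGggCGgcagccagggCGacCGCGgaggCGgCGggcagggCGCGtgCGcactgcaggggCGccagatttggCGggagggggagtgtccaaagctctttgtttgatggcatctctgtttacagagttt
LOC102723996: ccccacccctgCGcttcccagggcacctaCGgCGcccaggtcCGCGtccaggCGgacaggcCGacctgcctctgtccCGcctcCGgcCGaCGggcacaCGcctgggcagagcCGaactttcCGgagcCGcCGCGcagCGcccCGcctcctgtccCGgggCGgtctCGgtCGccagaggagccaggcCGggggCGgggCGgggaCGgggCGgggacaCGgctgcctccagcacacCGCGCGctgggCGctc
B3GNT7: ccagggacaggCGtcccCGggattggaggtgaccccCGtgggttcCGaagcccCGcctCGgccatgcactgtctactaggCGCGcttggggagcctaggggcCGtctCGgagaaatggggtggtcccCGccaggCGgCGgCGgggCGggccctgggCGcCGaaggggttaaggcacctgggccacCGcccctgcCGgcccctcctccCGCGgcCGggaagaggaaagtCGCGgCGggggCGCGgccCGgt
TSPAN4: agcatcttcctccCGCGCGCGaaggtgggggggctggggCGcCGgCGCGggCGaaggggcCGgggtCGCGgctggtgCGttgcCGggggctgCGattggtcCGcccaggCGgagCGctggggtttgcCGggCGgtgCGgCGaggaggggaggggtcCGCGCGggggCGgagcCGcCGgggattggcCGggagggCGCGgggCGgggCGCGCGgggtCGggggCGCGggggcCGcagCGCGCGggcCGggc
TTYH1: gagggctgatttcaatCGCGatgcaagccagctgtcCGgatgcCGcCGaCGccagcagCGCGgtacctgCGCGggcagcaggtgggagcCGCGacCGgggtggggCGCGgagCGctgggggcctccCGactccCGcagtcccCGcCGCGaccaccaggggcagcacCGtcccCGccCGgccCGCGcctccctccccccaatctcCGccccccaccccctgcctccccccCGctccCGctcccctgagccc
The GATA2 stretch lies at chr3:128493202-128493451 on the minus strand. The others are on the plus strand, at chr7:50304466-50304715 for IKZF1, chr6:135181058-135181307 for MYB, chr21:5022281-5022530 for LOC102723996, chr2:231395460-231395709 for B3GNT7, chr11:849606-849855 for TSPAN4 and chr19:54415214-54415463 for TTYH1. They hold 24 CpGs at GATA2, 28 at IKZF1, 34 at MYB, 33 at LOC102723996, 28 at B3GNT7, 43 at TSPAN4 and 29 at TTYH1. The median over the same 250 bases at 21156 listed starts was 17 (quartiles 5 and 26), so each of the 7 lay above it. As many CpGs as at GATA2 were held by 30.7% of these starts, and as many as at TSPAN4 by 1.25%. The starts shown for genes called in 1 library alone were thus dense in CpG in both directions.

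Each condition had 1 H3K27me3 library, so there is no replicate, no test could be made between the conditions, and every difference below is one between 2 libraries. In the names of the deposited files, and of the islands in them, the conditions are swapped relative to the sample labels. Groups follow the labels, and were the file names correct, each direction below would be the reverse. The design text of the series names cells with and without a GATA2 reporter, whereas each sample is labelled GATA2+. H3K4me3 was read at genes of the labelled cell type. Of 20 endothelial genes, 17 had an H3K4me3 island at the start in both conditions, among them PECAM1, KDR, TEK and TIE1. Of these 17, 12 had no H3K27me3. Over all 19126 protein-coding genes, 13625 had H3K4me3 in both conditions, and 10622 of these had no H3K27me3 in either. The neural ectoderm list had H3K4me3 in both conditions at 21 of 23 genes, so the endothelial count does not identify the cell type. All 14 housekeeping genes carried H3K4me3 in both conditions and 0 carried H3K27me3. A histone mark is not a level of expression, so this does not measure which cells were present. Read depth is unknown from these lists, and intervals given with shares are exact Clopper-Pearson intervals at 95% that cover counting error only.

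The Vc+ library held more and wider H3K27me3 islands. Its 9534 islands covered 51.1 Mb, against 40.2 Mb for the 8893 islands of the Vc- library, a ratio of 1.27 in covered length and of 1.07 in number. The median island was 4.0 kb wide (quartiles 2.8 and 5.8 kb) in the Vc+ library and 3.2 kb (2.2 and 5.0 kb) in the Vc- library. The difference in covered length therefore came more with width than with number. Islands of at least 10 kb numbered 759 (7.96%) and 548 (6.16%), and held 28.7% and 26.4% of the covered length. Islands under 2 kb, by contrast, were fewer in the Vc+ library, 655 against 1510.

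**Figure D1:**
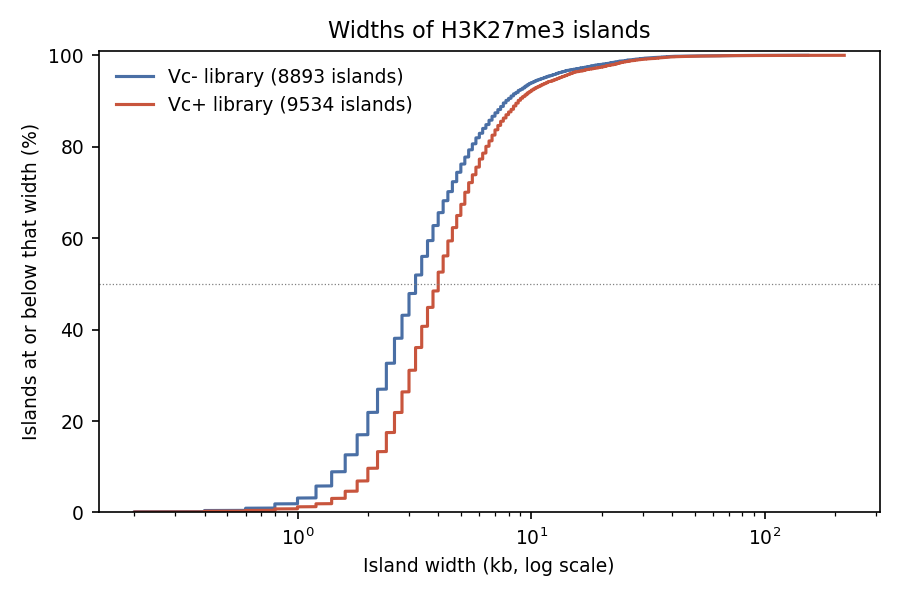
Cumulative share of islands (%) by width (kb, log scale) in the 2 H3K27me3 libraries, 1 line per library. The Vc+ line lies to the right of the Vc- line up to about the widest islands, with medians of 4.0 and 3.2 kb where the lines cross the dotted line at 50%.

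Most H3K27me3 islands of either library met an island of the other. Counting an overlap of at least 1 bp as shared, 6370 of the Vc- islands (71.6%, interval 70.7 to 72.6) and 5994 of the Vc+ islands (62.9%, 61.9 to 63.8) were shared, and 2523 and 3540 lay in 1 library alone. The 2 lists had 29.1 Mb in common and a Jaccard index over base pairs of 0.468. The Vc+ library covered 22 Mb that the Vc- library did not, of which 9.65 Mb lay inside shared islands and 12.4 Mb in islands called there alone. The reverse was 11.1 Mb, with 4.28 Mb inside shared islands and 6.81 Mb in islands alone. The longer list thus held more unshared sequence both around common islands and at separate places. Islands that were alone were not always far away: 33.6% of those in the Vc- library and 28.5% of those in the Vc+ library lay within 5 kb of an island of the other, and the median distances were 11.4 and 18.2 kb.

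Sharing followed the rank of an island by the authors' score, which was used here to order islands within a library. In the alternative settings alone, the same score thresholds were applied to both lists. Each list was split into 10 bins of equal number by score. In the lowest bin, 40.2% of Vc- islands and 35.1% of Vc+ islands were shared. In the highest bin the shares were 99.9% (889 of 890) and 100% (954 of 954). The islands that the libraries did not share were therefore largely the low-ranking ones. Of the 1000 highest-ranking Vc- islands, 847 met one of the 1000 highest-ranking Vc+ islands and 999 met an island anywhere in that list. In the other direction the numbers were 829 and 1000. The highest-ranking Vc- island with no partner, 3.2 kb on chromosome 1 (144785001 to 144788200) near the widest gene-free gap, ranked 825 and had no gene start. Its counterpart in the Vc+ library, at LOC102723996 on chromosome 21, ranked 1701.

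**Figure D2:**
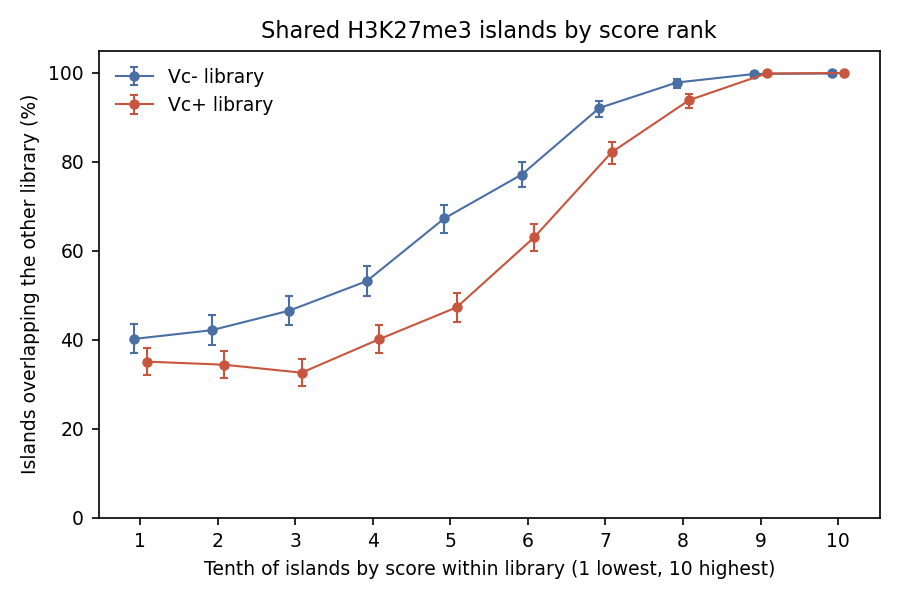
Share of islands (%) that overlap the other library, by bin of score within each library (1 lowest, 10 highest), with exact 95% intervals for counting error as bars. Both lines climb from about 40% and 35% in the lowest bin to 99.9% and 100% in the highest, with the Vc- points above the Vc+ points in bins 1 to 8.

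Score rank also went with the kind of place an island lay in. In the lowest bin, 1.24% of Vc- islands and 1.68% of Vc+ islands had a protein-coding gene start within 1 kb, and 80.8% and 78.6% lay 5 Mb or less from the widest gap without genes on their chromosome, which on most chromosomes spans the centromere or the short arm. In the highest bin, 77.2% and 77.3% had a gene start and 6.74% and 8.39% lay near such a gap. High-ranking H3K27me3 was thus mostly at genes in both libraries, and low-ranking H3K27me3 mostly in gene-poor sequence near gaps. How reads from repeats were placed is not given in the sources used here.

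At gene starts, the mark was largely the same in both libraries. Of 19126 protein-coding genes, 2945 (15.4%) had an H3K27me3 island within 1 kb of the start in the Vc- library and 3216 (16.8%) in the Vc+ library. Both libraries had one at 2703 genes (14.1%), the Vc+ library alone at 513 (2.68%), the Vc- library alone at 242 (1.27%) and neither at 15668. These percentages are the background against which the gene lists below are read. Genes called in the Vc+ library alone made up 68.0% (interval 64.5 to 71.3) of the 755 called in 1 library, though neighbouring genes can share an island and are not independent. Where the other library had none within 10 kb, 370 genes were left in the Vc+ library and 165 in the Vc- library.

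H3K4me3 accompanied most of these calls. It was present in both conditions at 88.8% of the 2703 genes with H3K27me3 in both libraries, at 79.3% (75.6 to 82.8) of the 513 called in the Vc+ library alone and at 80.6% (75 to 85.4) of the 242 called in the Vc- library alone. Among genes with no H3K27me3 in either library it was 67.8%. Within 10 kb on either side of the start, the 2703 genes called in both had a median of 5.2 kb covered by H3K27me3 in the Vc- library and 6.2 kb in the Vc+ library. More was covered in the Vc+ library at 1734 of them, less at 753 and the same at 216. Each library was read at the start or gene end nearest to its own island. At some genes with several such points, ZEB1 and OTX2 among them, the windows therefore differed. The larger coverage around common gene starts thus ran in the same direction as the whole lists.

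Of the gene lists read, those of master regulators of development were marked most fully, and their calls differed little between the libraries. All 23 neural ectoderm genes of the list, among them PAX6, SOX1, NEUROG1 and OLIG2, had an island in both libraries, and the median coverage within 10 kb of their starts was 20 and 19.9 kb. Of 104 homeobox genes outside the HOX clusters, 87 were called in both libraries, 0 in the Vc+ library alone and 1 in the Vc- library alone. That gene was POU2F3, a POU factor of tuft cells, whose Vc- island of 4.2 kb lay 0.362 kb from an end of the gene while a Vc+ island of 2.4 kb lay 2.16 kb away. The T-box list had 10 of 16 in both and the frizzled receptor list 7 of 10, with none in 1 library alone. Of 43 forkhead genes, 25 were in both, FOXK1 and FOXP1 in the Vc+ library alone and FOXH1 in the Vc- library alone.

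The HOX clusters, which pattern the body axis, held the widest H3K27me3 islands, and those over HOXC and HOXA were the 2 widest in each library. All 11 HOXA, 9 HOXC and 9 HOXD genes were called in both, and the spans of these 3 clusters were covered to 100% in both libraries except HOXD in the Vc- library, at 99.0% in 2 islands. The widest island of the Vc+ library, 219 kb over HOXC, met 8 separate islands of the Vc- library. HOXB was the cluster that differed most between the libraries. Its span of 200.2 kb held 7 islands covering 25.8 kb (12.9%) in the Vc- library and 12 islands covering 57.2 kb (28.5%) in the Vc+ library. HOXB1, HOXB6, HOXB7, HOXB9 and HOXB13 were called in both, and HOXB4 and HOXB8 in the Vc+ library alone.

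At HOXB4, a factor known to expand blood stem cells, the Vc- island (48579401 to 48584600) lay 1.05 kb beyond the upper-coordinate end, just outside the window. A Vc+ island of 5.4 kb (48572001 to 48577400) covered the lower-coordinate end and stopped short of the upper, so the libraries were read at different ends. At HOXB8 the nearest Vc- island was 2.95 kb away and a Vc+ island of 4.6 kb covered an end of the gene. Around HOXB9 the 20 kb window held 2.2 kb of H3K27me3 in the Vc- library and 14 kb in the Vc+ library. Among the 2703 genes called in both, this was the largest difference in that direction. HOXB2, HOXB3 and HOXB5 had no island within 1 kb of an end in either library, with the nearest at 3.44 to 10.5 kb. HOXB genes other than HOXB1 were read at both ends of their span, since no start is listed for them in the table used.

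Blood regulators were called more often in the Vc+ library. Of 26, 9 had H3K27me3 in both libraries, 4 in the Vc+ library alone, 0 in the Vc- library alone and 13 in neither, which is 34.6% and 50% of the list in the 2 libraries beside 15.4% and 16.8% of all genes. Over the 9 called in both, coverage within 10 kb was larger in the Vc+ library at 8 and equal at HOXA9, with a median difference of 0.8 kb beside 0.6 kb over all 2703 genes. Each library was read at the listed start nearest to its own island, and at MECOM, 1 of the 8, these were different starts, so that coverage there is not compared at 1 place. The list was drawn up with earlier results of these data known, and its count is a description.

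RUNX1, the factor that starts the passage from endothelium to blood, has 1 start in the promoter table, at 34888699 on the minus strand of chromosome 21, which lies inside the gene span. Ahead of it the Vc- library had an island of 5.0 kb (34889401 to 34894400) at 0.701 kb from the start, and the Vc+ library one of 8.0 kb (34889001 to 34897000) at 0.301 kb. By score these ranked 2650 and 1977 in their libraries. Within 10 kb of the start 11.5 and 12 kb were covered, so the wider Vc+ island came with nearly the same total. With a window of 500 bp the call at RUNX1 would be in the Vc+ library alone, and LYL1 and HHEX would not be called.

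GATA2, the factor named in the label of the cells, carried H3K27me3 over its upstream start in both libraries. The island was 2.4 kb wide and ranked 3855 in the Vc- library, and 4.2 kb wide and ranked 2205 in the Vc+ library. Both covered the start at 128493201 and the whole of the sequence shown above, and H3K4me3 was called there in both conditions. GFI1, a repressor that silences the endothelial programme as blood emerges, had islands of 13.0 and 16.6 kb. CEBPA, a myeloid factor, had islands of 2.2 and 4.8 kb. At GATA2, GFI1 and CEBPA the Vc+ island was the wider one, by more than at ERG (8.4 and 8.6 kb), HLF (10.2 and 11 kb) and CBFA2T3 (3.2 and 3.6 kb). At MECOM, a factor of blood stem cells with several listed starts, the nearest islands lay at different starts, 169142801 to 169146400 in the Vc- library and 169664001 to 169671600 in the Vc+ library.

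IKZF1 and MYB showed the clearest differences among blood regulators. At IKZF1, which encodes the lymphoid factor Ikaros, a Vc+ island of 4.2 kb (chr7:50301601-50305800) covered the start and the whole of the sequence shown above, and the nearest Vc- island was 528 kb away. At MYB, a factor of definitive blood, a Vc+ island of 2.2 kb lay inside the gene at 0.492 kb from the start and did not reach the sequence shown, with the nearest Vc- island 862 kb away. The score placed these islands in the top 32.7% and 35% of the Vc+ list, so they were of middle rank. LYL1, a helix-loop-helix factor at work in blood stem cells, had a Vc+ island of 3.4 kb at 0.657 kb from its start, and the nearest Vc- island was 39.1 kb away. HHEX, a homeobox factor needed early in both lineages, differed least, with a Vc- island of 1.2 kb and a Vc+ island of 1.8 kb at 1.15 and 0.55 kb from the start. All 4 genes had H3K4me3 at the start in both conditions.

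Markers of blood cells carried H3K27me3 at shares near those of all genes. Of 24, 4 were called in both libraries, CD34 in the Vc+ library alone and 19 in neither. This is 16.7% (Vc-) and 20.8% (Vc+) of the list, beside 15.4% and 16.8% of all genes. KIT, the receptor for stem cell factor, had islands of 3.2 kb (Vc-) and 7.0 kb (Vc+), CD38, an ectoenzyme of blood cells, of 5.2 and 9.4 kb, and CD44, an adhesion receptor, of 3.6 and 4.6 kb. HBA1, an alpha globin gene with a near-identical neighbour, lay within islands of 28.2 and 19.4 kb, wider in the Vc- library. Coverage within 10 kb of its end was nearly equal there, at 14.3 kb (Vc-) and 14.5 kb (Vc+). CD34, a sialomucin of blood progenitors and endothelium, had a Vc+ island of 3.8 kb that ranked low in the list (top 84.6%) and is no longer called at a score of at least 5. Of these 24 genes, 6 had H3K4me3 in both conditions, beside 13625 of all 19126 genes. PTPRC, SPN and CD3E were among those that had neither mark.

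Endothelial genes showed the same direction, with a limit in how they were read. Of 20, ESAM, CLDN5 and SOX17 were called in both libraries, CDH5, VWF and SOX18 in the Vc+ library alone, and 14 in neither. CDH5, which encodes VE-cadherin, had a Vc+ island of 1.6 kb, with the nearest Vc- island 18.4 kb from the gene. SOX18, an endothelial transcription factor, had one of 2.6 kb, with the nearest Vc- island 33.6 kb away. VWF, which encodes von Willebrand factor, had a Vc+ island of 5.8 kb over an end of the gene and a Vc- island of 4.0 kb at 1.08 kb. All 6 called genes were read at both ends of their span, and with listed starts alone the list had 10 genes and no call in either library. KDR, TEK, TIE1 and PECAM1, receptors and an adhesion molecule of endothelium, had H3K4me3 in both conditions, and the H3K27me3 island nearest to any of them was 297 kb away. The CDH5 island touched the upper-coordinate end of its gene and the VWF island the lower, and neither reached the other end. The table used lists no start for these genes, so these 2 calls are not to be read as marks at promoters.

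Of 19 arterial and Notch genes, 5 were called in both libraries and HEY1, a Notch target, in the Vc+ library alone. DLL4, the Notch ligand of arterial endothelium, had islands of 4.8 and 8.8 kb, and HES4 of 3.0 and 7.0 kb, both wider in the Vc+ library. CXCR4, a chemokine receptor, ran the other way with 9.0 and 6.0 kb. The venous and lymphatic list had 4 of 9 in both and none in 1 library alone. Of these, NR2F2, the factor of venous identity, had islands of 29.8 and 65.2 kb, and PROX1, the factor of lymphatic identity, of 5.8 and 9.4 kb.

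Genes of other lineages gave few calls in 1 library. The mesenchymal list had 7 of 22 in both, the pluripotency list 5 of 13 and the endoderm list 8 of 14, with none in 1 library alone. Of 15 cardiac genes 4 were in both and GATA5 was in the Vc+ library alone, with an island of 1.8 kb and the nearest Vc- island 164 kb away. SOX2 had islands of 40.2 and 33.8 kb and NODAL of 7.8 and 5.8 kb, wider in the Vc- library. Of 25 genes of BMP, TGF-β and WNT signalling, 7 were in both, TGFB2 in the Vc+ library alone and NOG, an inhibitor of BMP, in the Vc- library alone. The nearest Vc- island to TGFB2 was 176 kb away and the nearest Vc+ island to NOG 237 kb.

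Genes of the Polycomb and demethylase machinery were called at 25% in each library, beside 15.4% and 16.8% of all genes. Of 24, 17 had no H3K27me3 island at the start in either library, among them the methyltransferase genes EZH1 and EZH2 and their partners SUZ12 and EED. Over all protein-coding genes 81.9% had none in either. The demethylase gene KDM6B had none within 1 kb of its listed start, with the nearest at 76.5 kb (Vc-) and 11.7 kb (Vc+). Among the marked ones were CBX7, CBX8, BMI1 and PHC2, subunits of Polycomb repressive complex 1, in both libraries. CBX6 was called in the Vc+ library alone, with an island of 4.8 kb, and CBX2 in the Vc- library alone, with a Vc+ island 1.02 kb away, just outside the window. Of these 24 genes, all 24 had H3K4me3 in both conditions, beside 13625 of all 19126 genes. BMI1 stood out in the other direction, with 15.6 kb covered within 10 kb of its start in the Vc- library and 11.2 kb in the Vc+ library.

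Of 12 genes that handle or depend on vitamin C, TET2, TET3 and EGLN1 were called in both libraries and 9 in neither. TET2 and TET3 encode enzymes that oxidise methylcytosine, and EGLN1 an oxygen-sensing prolyl hydroxylase. The covered length within 10 kb of the start was 2.6 and 6.4 kb at TET2, 1.8 and 4.0 kb at TET3, and 2.8 and 8.0 kb at EGLN1, larger in the Vc+ library at all 3. The transporter genes SLC23A1 and SLC23A2 had no island at their starts. Of 7 cell cycle inhibitor genes, 3 were called in both libraries and 4 in neither. CDKN2A and CDKN2B shared a Vc- island of 50.4 kb, which in the Vc+ library stood as islands of 36.8 and 9.0 kb. Coverage within 10 kb of the start was 20 kb in both libraries at CDKN2A, and 12.7 kb (Vc-) and 9.0 kb (Vc+) at CDKN2B. CDKN2C went the other way, with islands of 8.6 kb (Vc-) and 22.8 kb (Vc+).

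Large gene families differed in how often they were marked. Potassium channel genes were called in both libraries at 54 of 93, in the Vc+ library alone at 4 and in the Vc- library alone at 2. WNT genes were called in both at 14 of 19, with WNT9B in the Vc+ library alone. Zinc finger genes of the ZNF family, most of them clustered repressors, were called in both at 15 of 497, in the Vc+ library alone at 17 and in the Vc- library alone at 10. Here more genes differed than were shared, whereas in the homeobox and potassium channel lists few differed. ZNF, ribosomal protein and clustered protocadherin genes have near copies, so reads may be shared among them and single calls are uncertain. Of 73 ribosomal protein genes, 0 were called in both libraries together, and RPL7 and RPS2 were among those called in 1 library alone, both in Vc+.

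**Figure D3:**
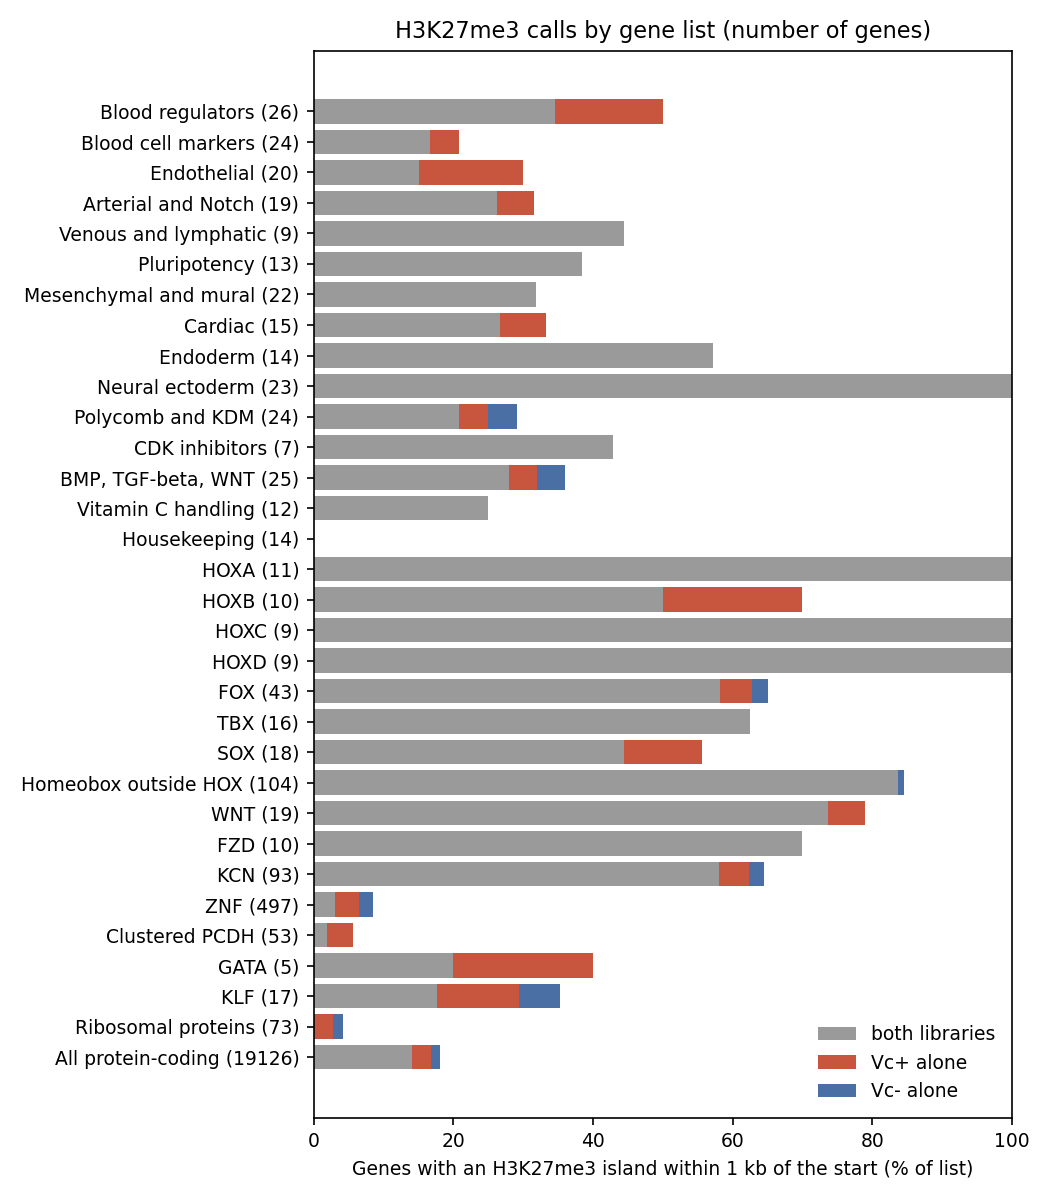
Share of each gene list (%) with an H3K27me3 island within 1 kb of the start, split into genes called in both libraries, in the Vc+ library alone and in the Vc- library alone, with the number of genes in parentheses. Neural, HOXA, HOXC and HOXD lists reach 100% in both, while the blood regulator list has 9 of 26 in both and 4 in the Vc+ library alone and the housekeeping list is at 0.

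Among genes without an island within 10 kb in the other library, those with the highest score rank were taken as the clearest differences. In the Vc+ library the first 12 were LOC102723996, B3GNT7, BCL2, HLA-B, MISP3, DUSP8, CLDN23, SPHK1, PRKCH, NPR1, BNIP3 and SOX18, with islands of 1.6 to 4.6 kb in the top 17.8% to 26.9% of the list. B3GNT7 encodes a glycosyltransferase. Its island of 2.2 kb (chr2:231394601-231396800) covered the sequence shown above, with the nearest Vc- island 133 kb away. BCL2 encodes an inhibitor of apoptosis and had a Vc+ island of 4.2 kb, with the nearest Vc- island 722 kb away. SPHK1 encodes the kinase that makes sphingosine 1-phosphate, PRKCH a protein kinase C, NPR1 a natriuretic peptide receptor and BNIP3 a mitophagy receptor. At HLA-B and DUSP8 H3K4me3 was called in the Vc- condition alone, and at the other 10 genes in both conditions. LOC102723996 lies near a gene-free gap, and HLA-B has close relatives that can share reads, so both calls are uncertain.

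In the Vc- library the first 12 were TSPAN4, TTYH1 with LOC124904770 at the same island, DENND3, TOX2, SPIB, CHRNA4, ZNF439, HCRTR2, KLF5, NMRK2, HLA-G and TC2N, in the top 22.2% to 33.5% of the list. TSPAN4 encodes a tetraspanin. Its island of 2.0 kb (chr11:849201-851200) covered the sequence shown above, and the nearest Vc+ island lay 16.8 kb from that island. From the nearest listed start of TSPAN4 a Vc+ island lay 10.5 kb away, just beyond the limit of 10 kb. TTYH1 encodes a membrane protein of neural cells and had an island of 3.4 kb, with the nearest Vc+ island 414 kb away and no H3K4me3 in either condition. SPIB, an ETS factor of B cells, KLF5, a Krüppel-like factor, and HCRTR2, an orexin receptor, had islands of 2.6, 3.2 and 3.6 kb. H3K4me3 was called in both conditions at TSPAN4, DENND3, TOX2, ZNF439, KLF5 and TC2N. The call at HLA-G is uncertain for the same reason as that at HLA-B. The Vc- genes were lower in their list than the Vc+ genes in theirs.

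Widths were compared directly over 4836 islands that met exactly 1 island in each direction. The Vc+ island was wider in 3132 pairs (64.8%), narrower in 1417 (29.3%) and equal in 287, with a median ratio of 1.17 (quartiles 0.933 and 1.56). Each edge lay a median of 200 bp further out in the Vc+ library, which is 1 window of the peak caller. The excess was spread over many islands and did not rest on a few. Pairs at gene starts had a median ratio of 1.11 (2336 pairs) and pairs away from them 1.22 (2500 pairs), and the 532 pairs with a mean width of 8 kb or more had 1.07. Score rank was close between the libraries, with a Spearman correlation of 0.906 across pairs, and width less so, at 0.642. These describe 4836 islands of 1 pair of libraries, which are not replicates, and wide islands score higher within each library.

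**Figure D4:**
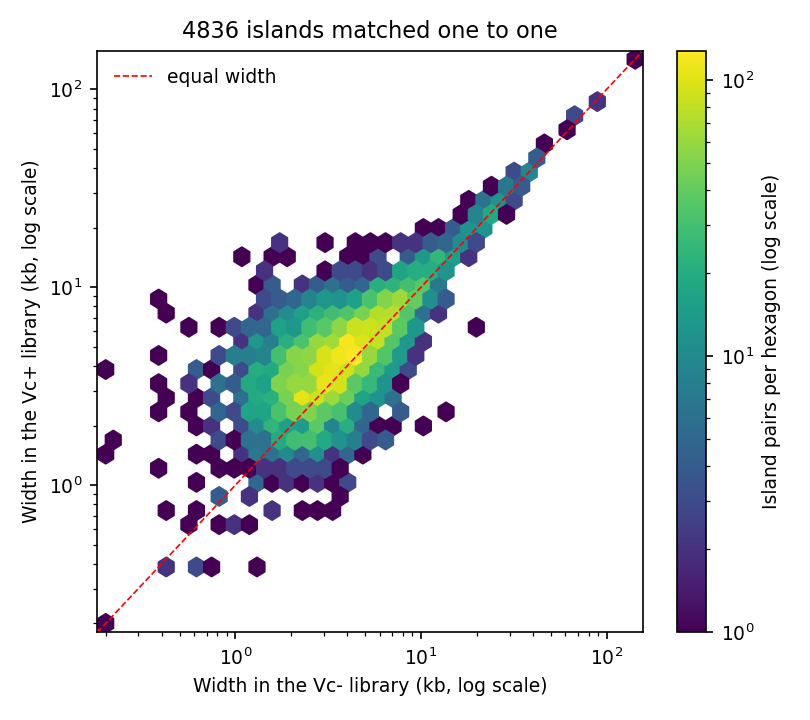
Width (kb) of 4836 islands matched one to one in the Vc- library (x axis) and the Vc+ library (y axis), both on log scales, with colour for the number of pairs per hexagon. More pairs lie above the dashed line of equal width (3132) than below it (1417), and the widest pairs lie close to the line.

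Among matched islands at gene starts that were at least 4 kb wide in 1 library, the largest ratios towards the Vc+ library were at DEF8 (1.0 and 6.4 kb), LOC124903151 with KL (1.6 and 10.2 kb), RNF227 (0.8 and 4.2 kb), FAM111A (1.8 and 9.2 kb), GLIS1 (1.4 and 6.8 kb) and NPY4R2 (1.0 and 4.8 kb). KL encodes klotho, a co-receptor for fibroblast growth factors, and GLIS1 a Krüppel-like zinc finger factor. NPY4R2 has a near-identical copy, so its reads may be shared. Towards the Vc- library they were at LOC124900574 (5.8 and 1.6 kb), RIC3 (4.2 and 1.6 kb), KCNK6 (4.0 and 1.6 kb), GALNT18 (5.8 and 2.4 kb), FGF12 (4.0 and 1.8 kb) and PCSK2 (4.0 and 1.8 kb). The ratios ran up to 6.4 in the first direction and down to 0.276 in the second, so the widest swings favoured the Vc+ library.

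The same islands could keep their place and differ in rank. The largest moves towards the top of the Vc+ list were at GP5, a subunit of a platelet receptor (top 81.9% in Vc-, top 26.0% in Vc+), LOC124903317 (91.2% and 39.8%), LDLRAD4 (85.4% and 34.8%), CNTNAP3 (74.8% and 28.3%) and ARL9 (75% and 28.8%). The largest moves the other way were at ABCA5 (42.8% and 89.0%), CADPS, a factor of vesicle release (28.8% and 74.8%), MFSD2B, a sphingosine 1-phosphate exporter of red cells and platelets (26.8% and 71.2%), SLC7A4 (25.4% and 63.1%) and FGF12 (28.2% and 64.1%). FGF12 was thus both narrower and lower in the Vc+ list. LDLRAD4, CNTNAP3 and ARL9 lie within 5 Mb of a gene-free gap, and CNTNAP3 has near-identical copies.

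Some islands of 1 library spanned several of the other. In the Vc+ library 626 islands (6.57%) met at least 2 Vc- islands, and 90 of them met at least 3. In the Vc- library 366 islands (4.12%) met at least 2 Vc+ islands, and 19 at least 3. Joined stretches were thus more common in the library with the longer list. At PTF1A and at NR2F1 the Vc- library held the joined island, of 29.4 and 60.2 kb, and 3 Vc+ islands overlapped each.

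Where islands lay differed between shared islands and those in 1 library alone. A protein-coding gene start lay within 1 kb of 41.8% of shared Vc- islands and 44.0% of shared Vc+ islands, against 8.32% (7.28 to 9.47) of islands in the Vc- library alone and 11.9% (10.9 to 13.0) in the Vc+ library alone. An H3K4me3 island of the same condition overlapped 58.5% and 62.8% of shared islands, against 14.3% and 17.7% of those alone. Unshared islands thus lay mostly away from genes and from H3K4me3 in both directions. Islands near the widest gene-free gap made up 57.7% (55.8 to 59.7) of those in the Vc- library alone and 38.3% (36.7 to 39.9) of those in the Vc+ library alone, and 26.9% and 26.3% of shared islands. With islands near the edges of the gaps left out, gene starts lay at 18.3% and 17.9% of islands in the Vc- and Vc+ library alone, so the order between these 2 classes rested on the gap regions.

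**Figure D5:**
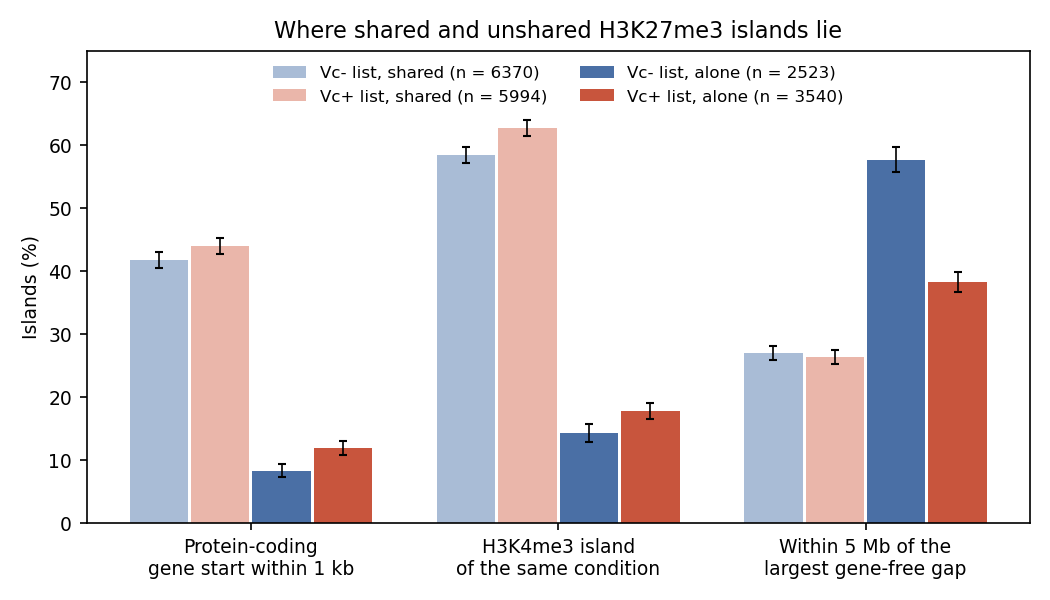
Share of islands (%) with a protein-coding gene start within 1 kb, an overlapping H3K4me3 island of the same condition, or a position 5 Mb or less from the widest gene-free gap, for shared islands and islands in 1 library alone of each list. Bars are exact 95% intervals for counting error. Shared islands stand at 41.8% and 44.0% with a gene start against 8.32% and 11.9% of those alone.

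By location, between genes lay 77.3% of islands in the Vc- library alone and 69.0% of those in the Vc+ library alone, with medians of 1095 and 279.5 kb to the nearest protein-coding gene. Inside a gene but away from its start lay 13.0% and 17.1%. The lone Vc- islands were thus the more gene-poor of the 2 sets. Starts of long non-coding RNA genes were called at 807 of 11145 in the Vc- library and 916 in the Vc+ library, with 740 in both, 176 in the Vc+ library alone and 67 in the Vc- library alone.

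The larger covered length of the Vc+ library held on each of the 22 chromosomes. The ratio ran from 1.05 on chromosome 21 to 1.41 on chromosome 1, with a median of 1.26. The number of islands was lower in the Vc+ library on chromosomes 6, 18 and 21, so there the larger coverage came with width. Over windows of 1 Mb with any H3K27me3, 1588 of 2137 (74.3%) had more in the Vc+ library and 510 had less. Away from the gaps the ratio of covered length was 1.32, and near them 1.18.

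The windows with the largest differences lay next to gaps and at a few gene loci. At the start of the gene-free gap of chromosome 9, the windows from 43 to 45 Mb held 344 and 221 kb in the Vc- library and 554 and 463 kb in the Vc+ library, with no protein-coding gene. On chromosome 21 near the gap, the 2 windows from 9 to 11 Mb went the other way, by 41.4 and 42.6 kb. Away from the gaps, the largest differences were on chromosome 22 from 22 to 23 Mb (324 and 489 kb), on chromosome 11 from 2 to 3 Mb (58.6 and 115 kb) and on chromosome 1 from 20 to 21 Mb (30 and 85.8 kb). In the chromosome 11 window the marked genes were ASCL2, TRPM5, KCNQ1 and PHLDA2, called in both libraries. The largest difference towards the Vc- library away from the gaps was 10.4 kb, on chromosome 5 from 174 to 175 Mb.

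Base composition was read over 300 bases at each listed start, from 250 ahead of it to 50 after. Starts with H3K27me3 in both libraries had a median of 27 CpGs (quartiles 17 and 36), those in the Vc+ library alone 26 (14 and 35), those in the Vc- library alone 23 (14 and 31) and those in neither 20 (6 and 31). With CpG-rich taken as G+C above 50% and a CpG observed over expected ratio above 0.6, the shares were 76.9% (75.2 to 78.5) of 2541 starts, 71.8% (67.7 to 75.8) of 497, 68.0% (61.9 to 73.7) of 253 and 57.5% of 17865. Over all 21156 starts the share was 60.3%. Both sets called in 1 library thus lay between the shared starts and the unmarked ones.

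H3K4me3 divided these starts more sharply than H3K27me3. Among starts without H3K27me3, 82.9% of the 11931 with H3K4me3 in both conditions were CpG-rich, against 5.24% of the 5651 with H3K4me3 in neither. Among starts with H3K27me3 in both libraries, the share was 81.0% with H3K4me3 in both conditions and 49.1% (43.5 to 54.7) otherwise. In the Vc+ library alone it was 83.9% and 19.4%, and in the Vc- library alone 78.3% and 26.0%. The sequences of IKZF1, MYB and B3GNT7 printed above belong to the CpG-rich starts with H3K4me3 in both conditions, and that of TTYH1 to a start with no H3K4me3.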

How the data were processed

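The data are lists of islands from chromatin immunoprecipitation and sequencing of H3K27me3, with H3K4me3 lists of the same conditions used for overlap. Bowtie2, SICER, deepTools and the builds hg38 and GRCh38 are listed, without roles, per the submitters' processing notes. Versions, roles and settings are not given in the sources used here. The protocol names an H3K27me3 antibody alone, while the antibody field of the labels gives H3K4me3 or H3K27me3 for each library other than the inputs. Samples were grouped by their labels, with 1 library per mark and condition, and the 2 inputs were not used here. The fifth column of each list is the authors' deposited score. From its values, which run from just above 2 to about 308 and then stand at 1000, it was read as −log10 of a false discovery rate, which depends on depth and width, and it was used to rank and filter islands within a list. Island widths are multiples of 200 bp and H3K27me3 islands lie at least 800 bp apart. Neither read counts nor depth are given, so precision is limited to the number of islands or genes.

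Starts were converted to count from 1. An island on chromosomes 1 to 22 was shared if it overlapped the other list by 1 bp. A protein-coding gene was called if an island lay within 1 kb of a start in the RefSeq GRCh38.p14 promoter table, which gives 21156 starts for 15101 of 19126 genes. The other 4025 genes were read at both ends of their span, so that an island can lie at the far end. Exons, introns and untranslated parts are not told apart. Values of a few list members are not reported here. Named genes are the first 12 islands by score in each direction with none of the other library within 10 kb, the 6 largest width ratios each way, the 5 largest moves in rank each way, the widest islands, and list members whose call differs, with up to 3 for lists given by a symbol pattern. MECOM, GFI1 and other members called in both libraries, and the windows of 1 Mb, were chosen after their values were seen. The members and the gene lists (15 by symbol, in which 266 of 267 symbols were found, and 16 by pattern) were chosen with earlier results of these data known. Alternatives covered score thresholds, equal island number or covered length, joining, narrow islands, gap regions, chromosome X, overlap rules, windows and gene ends. On the H3K27me3 lists, the overlap code gave the same number of shared islands and the same overlapping length as bedtools 2.31.1. The gene calls were tested on simulated data, with islands planted and removed. Python 3.11.15, numpy 2.4.6, pandas 2.3.3, scipy 1.17.1 and matplotlib 3.10.9 were used.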

Additional observations from a re-analysis of the deposited data

Results flagged for a closer look

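H3K27me3 islands were also present on chromosome X, which the comparisons above leave out: 97 in the Vc- library and 105 in the Vc+ library. They were looked at because they lie in data outside the comparisons, and no control list was available to set a background for them.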

How the results depend on the processing

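Over 187 values recomputed under an alternative, 94 stayed within counting error or within 1.5 times the main count and 93 did not. The Vc+ library alone held more genes than the Vc- library alone in 13 of 13 settings (ratio 1.60 to 2.62), and the median width ratio stayed above 1 in 9 of 9 (1.13 to 1.17). The order of the libraries in the share of islands shared turned when the lists were cut to the same covered length, and the cause was not tested. The order of Vc+ alone and Vc- alone islands in gene starts and in H3K4me3 also turned, without islands within 5 Mb of the edges of the gaps. With a score of at least 5, 78.8% and 68.2% of Vc- and Vc+ islands were shared and the Jaccard index was 0.527. Then gene starts lay at 51.5% of shared, 13.9% of Vc- alone and 17.3% of Vc+ alone islands, while H3K4me3 lay at 68.7% of shared, 23.6% of Vc- alone and 26.5% of Vc+ alone islands. With a score of at least 10, the Vc- list held 4460 islands, the Vc+ list held 4854 islands, the Vc+ list covered 33.3 Mb, 87.2% and 77.3% of Vc- and Vc+ islands were shared, the Jaccard index was 0.603 and the median width ratio was 1.13. There gene starts lay at 61% of shared, 28.3% of Vc- alone and 33.4% of Vc+ alone islands, while H3K4me3 lay at 78.5% of shared, 45.5% of Vc- alone and 47.7% of Vc+ alone islands. With the longer list cut to the same number of islands, 69.4% and 65% of Vc- and Vc+ islands were shared and the Jaccard index was 0.474. In that case gene starts lay at 43.1% of shared and 13.4% of Vc+ alone islands, while H3K4me3 lay at 60.02% of shared and 19.6% of Vc+ alone islands. With it cut to the same covered length, 60.8% and 75.6% of Vc- and Vc+ islands were shared and the Jaccard index was 0.497. Here gene starts lay at 48.6% of shared, 6.86% of Vc- alone and 21.8% of Vc+ alone islands, while H3K4me3 lay at 65.8% of shared and 29.98% of Vc+ alone islands. With islands up to 2 kb apart joined, 64% of Vc+ islands were shared and the Jaccard index was 0.481. Then gene starts lay at 46.7% of shared and 13.3% of Vc+ alone islands, while H3K4me3 lay at 64.1% of shared and 19.1% of Vc+ alone islands. Without islands under 2 kb, 72.9% and 58% of Vc- and Vc+ islands were shared, the Jaccard index was 0.459 and the median width ratio was 1.14. There gene starts lay at 44.6% of shared, 10.1% of Vc- alone and 14.4% of Vc+ alone islands, while H3K4me3 lay at 61.2% of shared, 16.4% of Vc- alone and 21.5% of Vc+ alone islands. Without islands within 5 Mb of the middle of the gaps, 78.5% and 66.1% of Vc- and Vc+ islands were shared and the Jaccard index was 0.505. In that case gene starts lay at 46.8% of shared, 13.2% of Vc- alone and 14.9% of Vc+ alone islands, while H3K4me3 lay at 61.9% of shared, 19.2% of Vc- alone and 20.4% of Vc+ alone islands. Without islands within 5 Mb of the edges of the gaps, chosen after seeing the data, the Vc- list held 5721 islands, 81.3% and 66.9% of Vc- and Vc+ islands were shared and the Jaccard index was 0.529. Here gene starts lay at 54.1% of shared, 18.3% of Vc- alone and 17.9% of Vc+ alone islands, while H3K4me3 lay at 68.1% of shared, 23.8% of Vc- alone and 23% of Vc+ alone islands. With at least 50% of an island covered to count as shared, 65.9% and 51% of Vc- and Vc+ islands were shared. Then gene starts lay at 44.3% of shared and 14.7% of Vc+ alone islands, while H3K4me3 lay at 61.5% of shared, 15.8% of Vc- alone and 22.8% of Vc+ alone islands. With islands within 5 kb also counted as shared, 81.2% and 73.5% of Vc- and Vc+ islands were shared. There gene starts lay at 37.3% of shared, 10.8% of Vc- alone and 14.9% of Vc+ alone islands, while H3K4me3 lay at 52.6% of shared, 17.1% of Vc- alone and 20.5% of Vc+ alone islands. With a window of 500 bp, gene starts lay at 38.1% of shared, 6.18% of Vc- alone and 10.2% of Vc+ alone islands. With a window of 2 kb, gene starts lay at 44.2% of shared, 10.3% of Vc- alone and 14.2% of Vc+ alone islands. At the blood regulators the 4 genes called in the Vc+ library alone were the same at scores of at least 5 and 10 and at the same covered length. No paired analysis was possible because each condition has 1 H3K27me3 library and the result comes from no test. Depth and replicate error are unknown, so the chance that an island recurs in another culture is not measured.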

Other observations

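The window with the largest difference away from gene-free gaps, chosen after its values were seen, lies over the variable segments of the immunoglobulin lambda light chain locus. The span of its 73 segments (chr22:22026076-22881392) held 58 H3K27me3 islands covering 296 kb (34.6%) in the Vc- library and 65 islands covering 442 kb (51.7%) in the Vc+ library. None of these islands overlapped an H3K4me3 island of the same condition. Of the Vc- islands 54 were shared, and of the Vc+ islands 40. The variable segments of the immunoglobulin heavy chain (127 segments) and of the T cell receptor alpha chain (54 segments) held 0 islands in either library, those of the T cell receptor beta chain 1 in each, and those of the kappa light chain, whose span reaches towards the centromere, 21 and 17 islands covering 146 and 158 kb. Other antigen receptor loci were not analysed here. Segments of one locus resemble each other, so reads may be shared among them.

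At gene starts called in both libraries, the coverage within 10 kb that was larger in the Vc+ library by 5 kb or more numbered 101 genes, and that larger in the Vc- library 5. Genes with several starts or ends could be read at different points in the 2 libraries. Beside HOXB9, the first group held RASGRF1 (7.0 and 16.6 kb), the imprinted gene PLAGL1 (7.8 and 16.4 kb) and EDN3, which encodes an endothelin (3.6 and 11.8 kb). The 5 genes of the second group were SKAP2 (9.8 and 3.6 kb), LTBP4 (8.57 and 2.8 kb), CAMKMT (15 and 9.4 kb), USP17L15 (10.0 and 4.6 kb) and MAPK8IP2 (10.6 and 5.6 kb). USP17L15 belongs to a family of near copies.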
